A study of Sparassis latifolia with 18 samples.

Results

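In the sources used here, 2 of the 1100 genes in the deposited FPKM table of the brown-rot fungus Sparassis latifolia are annotated as Hsp20 small heat shock proteins. Many genes of the table have no named product in these sources, so it may hold other members of the family. EVM0001099 and EVM0006992 were taken as members because their annotation names the Hsp20/alpha crystallin family, and both were measured in all 18 libraries. RNA was taken from mycelium of strain SP-C, which all groups share, grown in shaken liquid medium. CK was the control with a PSI time of 0 h in the study's methods, where PSI stands for pine sawdust inducing. The other groups shared a common harvest with it, and differed in how long sterilized fresh pine sawdust had been in the flask. This time was 1 h in the 1h group and 6 h in the 6h group, and the 1d, 5d and 10d groups are named for their days. With a common harvest, a longer time also meant a younger culture when the sawdust was added, and these cannot be told apart. A rise or fall between times is a difference between separate flasks. Each group had 3 libraries, which the study describes as biological replicates. The data are limited to a single strain in liquid culture, from which the sawdust was filtered off at harvest.

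Small heat shock proteins share the alpha crystallin domain, assemble into oligomers and hold unfolding proteins in a soluble state without using ATP. Hsp70 and its partners can then refold the bound proteins, or the ubiquitin system can remove them. In fungi, genes of this family respond to heat and to several other stresses, and the closest Swiss-Prot match of both members is Hsp16 of the fission yeast Schizosaccharomyces pombe. Both were also annotated as HSP20 family proteins in the KEGG pathway of protein processing in the endoplasmic reticulum. The annotation does not say in which compartment either protein works.

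For their correlation with the other libraries the study left out T-5d-2, T-1h-3, CK-1 and also T-1d-3, and these libraries also stood apart for the Hsp20 genes in part. Each test was therefore run with the 14 kept libraries and again with all 18. Since the libraries were left out on expression in these same data, SEs and p values over the 14 can understate the spread. FPKM is the number of fragments scaled by transcript length and by the mapped fragments of the library. It was compared as log2(FPKM + 1) with limma, a linear model that shares information on the spread across genes, and a difference was called when it exceeded 2-fold with an adjusted p under 0.01. The log2(FPKM + 1) scale understates changes of low values, which matters little at the levels of the Hsp20 genes but more for the weaker list genes named further on. The median log2 fold change of all tested genes against CK lay between -0.44 at 10d and 0.02 at 6h, so the changes of single genes stand against these medians. With quantile normalization the medians lay between -0.08 and 0.08. In the 14 libraries 94.3% of the tested genes differed among the 6 groups (limma F test, adjusted p under 0.01). Shares called, ranks and medians are thus set against a table in which most genes changed, which need not stand for the whole transcriptome.

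EVM0001099 was the weaker of the 2 Hsp20 genes. Its mean FPKM over the 18 libraries was 58.0, above 65.8% of the genes in the table, against a median gene mean of 27.2. In CK its FPKM was 44.8 in CK-2, 36.4 in CK-3 and 30.6 in the left-out CK-1. At 1h it was 54.0 and 56.8 in the kept libraries and 28.6 in T-1h-3. The kept 1h libraries lay above every CK library, and T-1h-3 lay below every CK library. At 6h the values were 25.1, 23.8 and 22.3, the lowest of the whole series and close together. At 1d they were 38.0 and 31.7 in the kept libraries and 27.6 in T-1d-3, within or just below the CK range. At 5d they reached 156 and 196 in the kept libraries, T-5d-1 first, but 55.1 in the left-out T-5d-2. At 10d the values were 49.0, 80.4 and 88.9, so all 10d libraries stayed above all CK libraries and below the kept 5d libraries.

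EVM0006992 was the more abundant Hsp20 gene, and since FPKM is given per length of transcript the levels of both genes can be compared. Its mean FPKM over the 18 libraries was 376, which ranked it 67 of 1100 genes. In CK it was at 273 in CK-2, 234 in CK-3 and 203 in CK-1. At 1h it was at 323 and 358 in the kept libraries and at 169.8 in T-1h-3. As for EVM0001099, the kept 1h libraries were above every CK library and T-1h-3 was below them. At 6h it was at 209.8, 156.9 and 175.7, and only the highest of these exceeded a CK library, CK-1. At 1d the FPKM was 291, 321 and 316, and here the left-out T-1d-3 lay between its partners. The 1d libraries did not overlap with CK for this gene, unlike those of EVM0001099. At 5d the FPKM was 869 and 1001 in the kept libraries and 475 in T-5d-2, and at 10d it was 418, 492 and 474. The kept 5d libraries were thus above all other libraries for both genes. The share of all genes with such separations between small groups of libraries was not counted, so these separations are a description only.

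**Figure D1:**
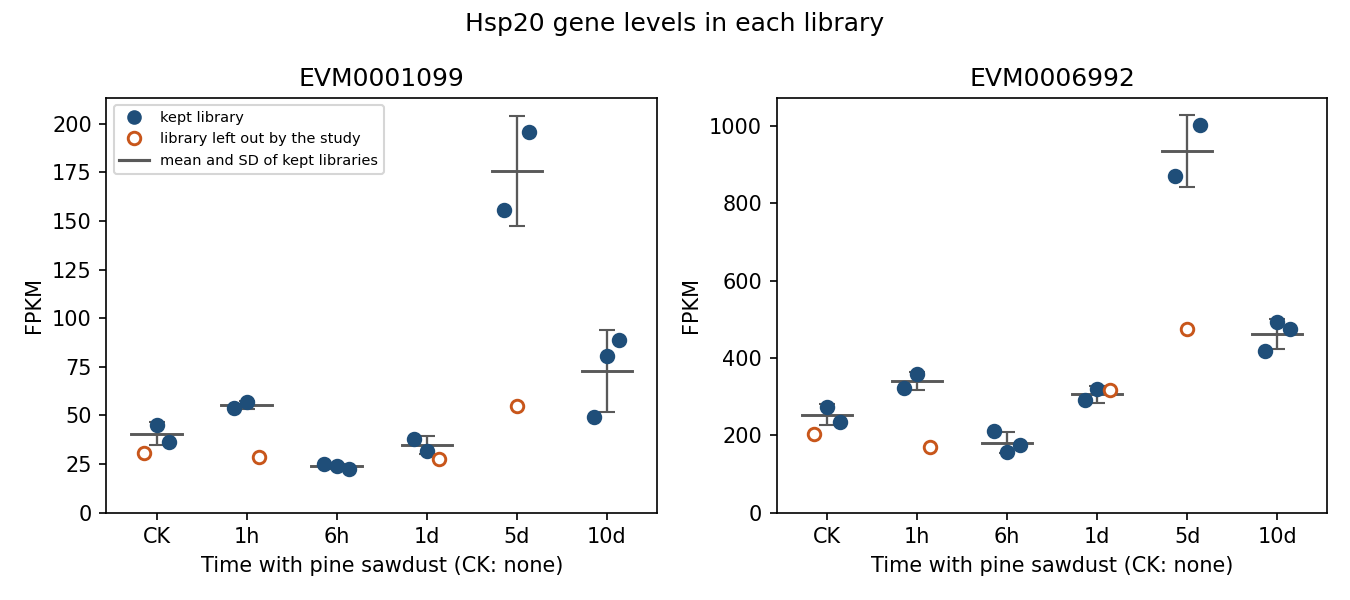
FPKM of EVM0001099 (left) and EVM0006992 (right) in each library, by time with pine sawdust. Filled points are the libraries kept by the study, open points the 4 it left out, and lines with bars the mean and SD of the kept libraries; both genes peak at 5d in the kept libraries, at 176 and 935, while T-5d-2 lies at 55.1 and 475.

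The comparison with CK asks whether the mycelium changed its Hsp20 transcripts at any time of PSI. Both genes rose at 5d and at no other time by the thresholds. In whole mycelium, more hyphae with the transcript and more transcript per hypha cannot be told apart. The mean FPKM of EVM0001099 was 40.6 ± 5.97 (SD, n = 2) for CK and 176 ± 28.4 (SD, n = 2) for 5d, a ratio of means of 4.33. The log2 fold change was 2.09 (SE 0.22, limma adjusted p = 1.98e-06), or 1.67 (SE 0.38, limma adjusted p = 0.00127) over the 18 libraries. EVM0006992 went from 254 ± 27.0 (SD, n = 2) to 935 ± 93.3 (SD, n = 2), a ratio of 3.69. Its log2 fold change was 1.88 (SE 0.14, limma adjusted p = 6.64e-08), and 1.66 (SE 0.27, limma adjusted p = 1e-04) with all 18 libraries. Both members were called, where 14.2% of the 1088 tested genes were called higher at 5d, or 11.7% of 1093 with all 18 libraries. Among the tested genes, ordered from the highest change at 5d, the Hsp20 genes took ranks 21 and 29. Both are on the study's blue-module list, a set of genes chosen on these same libraries for following the time of PSI. Of its 81 other tested genes, 55 were called higher at 5d in the 14 libraries and 47 in all 18. The calls and ranks of the members are thus not independent of that choice, here or at the other times. The rise was called for both genes whichever single library was left out, from either set of libraries.

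At 10d both members were above CK by less than the fold threshold. The mean FPKM was 72.8 ± 21.0 (SD, n = 3) for EVM0001099 and 461 ± 38.3 (SD, n = 3) for EVM0006992, which are ratios of 1.79 and 1.82 to CK. The log2 fold change of EVM0001099 was 0.79 (SE 0.20, limma adjusted p = 0.00235), and that of EVM0006992 was 0.86 (SE 0.12, limma adjusted p = 2.09e-05). The p threshold was passed by both, and 18.5% of the tested genes were called higher at 10d, or 14.1% over the 18 libraries. There the adjusted p was 0.0349 for EVM0001099 and 0.00438 for EVM0006992 (limma). Without T-10d-1, the lowest of the 10d libraries, EVM0001099 was called at 1.05 (SE 0.14, limma adjusted p = 1.65e-05). EVM0006992 was called from the 18 libraries without CK-2, at 1.07, or without T-10d-1, at 1.04.

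In the first day the differences from CK were small. At 1h the log2 fold change was 0.45 (SE 0.22, limma adjusted p = 0.0973) for EVM0001099 and 0.43 (SE 0.14, limma adjusted p = 0.0163) for EVM0006992. Over the 18 libraries these values were 0.27 (SE 0.38) and 0.20 (SE 0.27). At 6h they were -0.75 (SE 0.20, limma adjusted p = 0.00513) and -0.49 (SE 0.12, limma adjusted p = 0.0033), which passed the p threshold and were under the fold threshold. The adjusted p at 6h over the 18 libraries was 0.191 and 0.254 (limma). At 1d the values were -0.21 (SE 0.22, limma adjusted p = 0.416) and 0.27 (SE 0.14, limma adjusted p = 0.0947). None of these was called with either set of libraries. Over the 14 libraries, 10.6% of all tested genes were called higher at 1h, 8.82% lower at 6h and 8.55% higher at 1d, and over the 18 libraries 9.97%, 4.39% and 6.5%.

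Successive times were compared to see when the Hsp20 transcripts moved. Between 1h and 6h EVM0001099 fell by 1.19 on the log2 scale (SE 0.20, limma adjusted p = 0.000171), from 55.4 ± 1.97 (SD, n = 2) to 23.7 ± 1.44 (SD, n = 3). EVM0006992 differed by -0.92 (SE 0.12, limma adjusted p = 2.39e-05), from 340 ± 24.3 (SD, n = 2) to 181 ± 26.8 (SD, n = 3), just under the fold threshold. Thus 1 of the 2 genes was called lower at 6h than at 1h, where 7.54% of all tested genes were, or 6.22% over the 18 libraries. There the values were -0.88 (SE 0.38, limma adjusted p = 0.0752) and -0.59 (SE 0.27, limma adjusted p = 0.103), and the call of EVM0001099 was lost. Adding T-1h-3 alone to the 14 libraries also ended it, at -0.88 (SE 0.25, limma adjusted p = 0.00881), as did adding T-5d-2, at -1.19 (SE 0.40, limma adjusted p = 0.0271). Of the single libraries left out, only T-6h-1 brought a call of EVM0006992, at -1.03.

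From 6h to 1d the log2 fold change was 0.53 (SE 0.20, limma adjusted p = 0.0363) in EVM0001099 and 0.76 (SE 0.12, limma adjusted p = 0.000126) in EVM0006992. Both were under the fold threshold, where 5.24% of the tested genes were called higher, or 2.2% over the 18 libraries. From 1d to 5d both rose. The rise was 2.30 (SE 0.22, limma adjusted p = 1.54e-06) in EVM0001099, on the log2 scale, and 1.61 (SE 0.14, limma adjusted p = 4.84e-07) in EVM0006992. Of all tested genes 11.5% were called higher at 5d than at 1d, or 8.05% over the 18 libraries. There both rises were called, at 1.86 (SE 0.38) and 1.27 (SE 0.27), and that of EVM0006992 was lost when T-5d-3 was left out of the 18 (1.06, SE 0.29, limma adjusted p = 0.0112). Measured from the low point at 6h, the rise to 5d was 2.83 (SE 0.20) for EVM0001099 and 2.37 (SE 0.12) for EVM0006992. These values ranked 3 and 4 from the highest among the 1088 genes tested for 5d against 6h, and 2 and 3 among 1093 over the 18 libraries, where 7.63% and 6.59% of the tested genes were called higher. The ratio of means of 5d to 6h was 7.41 for EVM0001099 and 5.17 for EVM0006992. The pair of groups was singled out after the values were seen, because it holds the extremes of both genes.

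From 5d to 10d both genes fell in the 14 kept libraries. The log2 difference was -1.30 (SE 0.20, limma adjusted p = 0.000152) for EVM0001099 and -1.02 (SE 0.12, limma adjusted p = 2.06e-05) for EVM0006992, and 7.44% of the tested genes were called lower at 10d than at 5d. The 2 kept 5d libraries of each gene lay above its 3 libraries of 10d. Neither fall was called once T-5d-2 was included. When it was added to the 14 libraries, the differences were -0.75 (SE 0.36, limma adjusted p = 0.142) and -0.69 (SE 0.22, limma adjusted p = 0.034). Over the 18 libraries they were -0.75 (SE 0.38, limma adjusted p = 0.213) and -0.69 (SE 0.27, limma adjusted p = 0.113), where 0.274% of all tested genes were called lower. Leaving T-5d-2 out of the 18 restored the call of EVM0001099 (-1.30, SE 0.29, limma adjusted p = 0.00951) but not that of EVM0006992 (-1.02, SE 0.25, limma adjusted p = 0.0142). EVM0006992 stood close to the fold threshold, and without T-5d-3 it was at -0.92 and without T-10d-1 at -0.95, both not called.

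**Figure D2:**
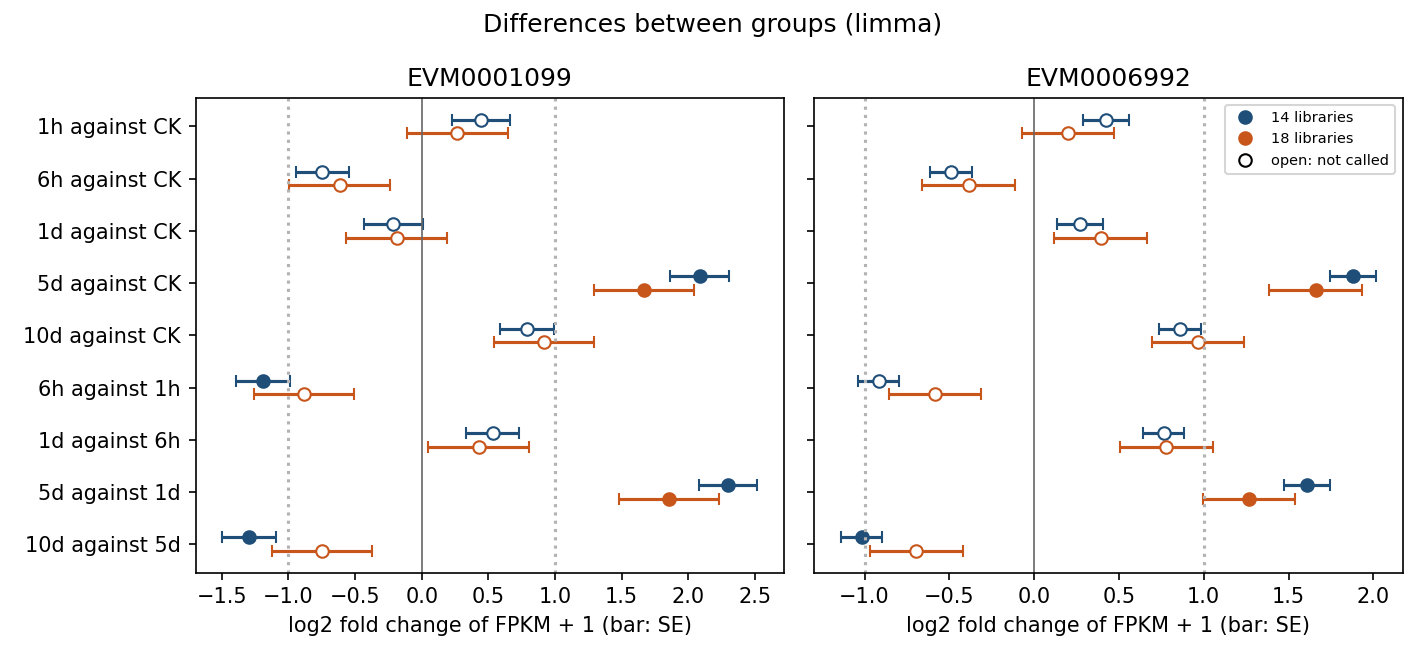
Log2 fold change of FPKM + 1 for 9 comparisons of EVM0001099 (left) and EVM0006992 (right), with 14 libraries in blue and 18 in orange; bars are SE, filled points were called and dotted lines mark a 2-fold change. The rises to 5d were called in both sets, with 2.09 and 1.88 against CK in the 14 libraries, and the falls from 5d to 10d in the 14 libraries only.

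In the order of their levels, EVM0001099 ran from 6h over 1d, CK, 1h and 10d to 5d. In this order only the step from 10d to 5d was called, and the other neighbours were separated by log2 differences between 0.21 and 0.53, none of them called. For EVM0006992 the order was 6h, CK, 1d, 1h, 10d and 5d. Again only the step from 10d to 5d was called. The step from 6h to CK, at 0.49 (SE 0.12), and that from 1h to 10d, at 0.44 (SE 0.12, limma adjusted p = 0.00519), passed the p threshold but not the fold threshold. Over the 18 libraries no neighbours in the order were called for either gene. The highest mean was at 5d and the lowest at 6h for both genes, with either set of libraries. Of the 1088 tested genes, 100 had their highest mean at 5d, 49 their lowest at 6h and 14 both, the Hsp20 genes included.

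The left-out libraries at 1h and 5d departed from their partners in the same direction for both genes. In T-1h-3 the ratio to the mean of the kept 1h libraries was 0.516 for EVM0001099 and 0.499 for EVM0006992. T-1h-3 ranked the Hsp20 genes 67 and 54 from the lowest of 1093 genes in this difference, so they were among its most lowered transcripts. With 169.8, EVM0006992 in T-1h-3 was inside the range of the 6h libraries, from 156.9 to 209.8, while EVM0001099 with 28.6 was above its 6h range, from 22.3 to 25.1. In T-5d-2 the ratio to the kept 5d libraries was 0.313 for EVM0001099 and 0.508 for EVM0006992, with ranks 27 and 91 from the lowest. There both genes were inside the range of the 10d libraries. The median log2 difference of all genes from the kept partners was -0.06 in T-1h-3 and -0.01 in T-5d-2. In CK-1 the ratios were 0.753 and 0.801, and in T-1d-3 they were 0.794 and 1.03.

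Both Hsp20 genes followed almost the same course. Over the 18 libraries, which share their groups, the Pearson r of their log2(FPKM + 1) was 0.939, and over the 14 kept libraries 0.967. Each was the gene most like the other among 1092. Part of this likeness lay between libraries of one group. The deviations from the group means had an r of 0.882 over 18 libraries, and EVM0006992 ranked 3 among the genes by likeness to EVM0001099 in these deviations. Over the 14 kept libraries that r was 0.551 and the rank 51, so much of it rested on the 4 left-out libraries.

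The ratio of the 2 genes was taken to see whether their courses parted. EVM0006992 had 6.26 ± 0.256 (SD, n = 2) times the FPKM of EVM0001099 in CK, and the ratio was close to this at 1h, with 6.14 ± 0.221 (SD, n = 2). It stood at 7.62 ± 0.903 (SD, n = 3) by 6h, then at 8.89 ± 1.75 (SD, n = 2) by 1d. At 5d it was 5.35 ± 0.334 (SD, n = 2), and the 10d mean was 6.66 ± 1.67 (SD, n = 3). In the kept libraries it was thus lowest at 5d, where both genes peaked, but in T-5d-2 it was 8.63, and over the 18 libraries the lowest mean was 6.07 at 1h, with 6.44 at 5d. The groups accounted for 62.7% of the variance of the log2 ratio, which a permutation test over the 6 groups did not separate from the spread between libraries (p = 0.11). Over the 18 libraries the share was 53.6% (permutation p = 0.072). Without T-10d-1, whose ratio of 8.54 was above the 6.11 and 5.33 of its partners, the share was 81.3% (permutation p = 0.018). This was the highest share of the runs with a single library left out, and its p was not adjusted for their number. Against CK the mean log2 ratio differed by 0.49 at 1d and by -0.23 at 5d, and both gave p = 0.333 in an exact two-sided permutation test, the smallest that 2 against 2 libraries allow. Over the 18 libraries the difference at 1d was 0.59, higher in 3 of 3 libraries (exact permutation p = 0.1, the smallest possible, adjusted p = 0.333 over the 5 times), and that at 5d was -0.03 (exact permutation p = 1.0).

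**Figure D3:**
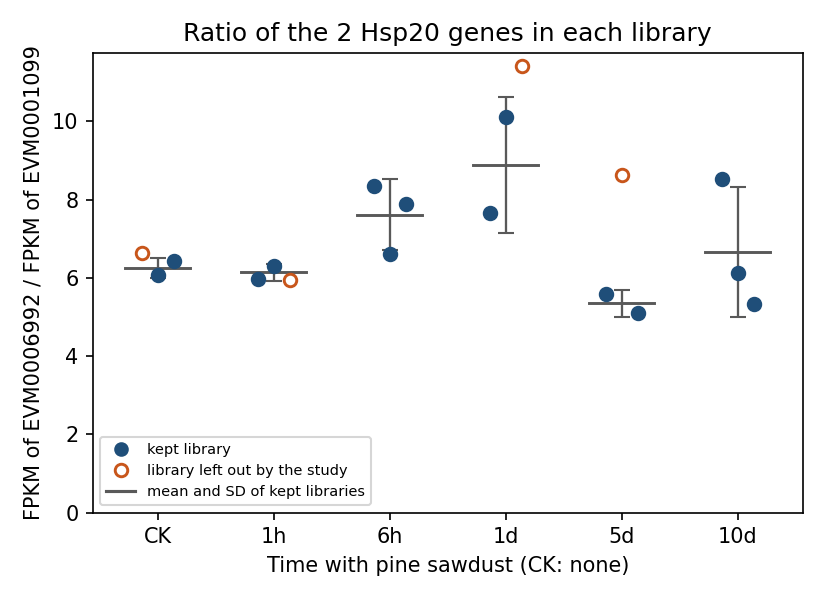
Ratio of the FPKM of EVM0006992 to that of EVM0001099 in each library, by time with pine sawdust. Filled points are kept libraries, open points those the study left out, and lines with bars the mean and SD of kept libraries; the means run from 5.35 at 5d to 8.89 at 1d.

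The genes most like the Hsp20 genes were looked for by the Pearson r of log2(FPKM + 1) over the 18 libraries, as a description. Next to EVM0006992, EVM0001099 was most like EVM0006727 (r = 0.893), EVM0011023 (r = 0.868), EVM0000684 (r = 0.858) and EVM0006761 (r = 0.856). Next to EVM0001099, EVM0006992 was most like EVM0011023 (r = 0.930), EVM0000118 (r = 0.884), EVM0007924 (r = 0.877) and EVM0006859 (r = 0.875). Only EVM0006859, a short-chain dehydrogenase that would oxidize or reduce alcohols and ketones, has a named product in the sources used here. All 7 peaked at 5d in the kept libraries, by less than the Hsp20 genes. A shared peak is favoured by their choice for likeness in these same libraries, so it is no separate result. EVM0006727 had a CK mean of 65.6 ± 1.60 (SD, n = 2), reached 137 ± 7.86 (SD, n = 2) at 5d and was at 83.2 ± 4.33 (SD, n = 3) at 10d. EVM0011023 went from 33.8 ± 1.07 (SD, n = 2) to 75.5 ± 8.09 (SD, n = 2) and was at 42.0 ± 2.30 (SD, n = 3) at 10d, the same shape. EVM0006859 had 89.3 ± 3.04 (SD, n = 2) at 5d, and its 10d mean was nearly as high, with 81.7 ± 4.73 (SD, n = 3). EVM0007924 (mean 20.2 at 5d and 19.5 at 10d), EVM0000684 (329 and 284) and EVM0000118 (73.7 and 56.6) also kept most of their level. EVM0006761 went from 17.0 to 11.2. In T-5d-2 EVM0006727 was at 85.5 and EVM0011023 at 54.8, below their kept 5d partners as the Hsp20 genes were, and EVM0006859 was at 103, above its partners.

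**Figure D4:**
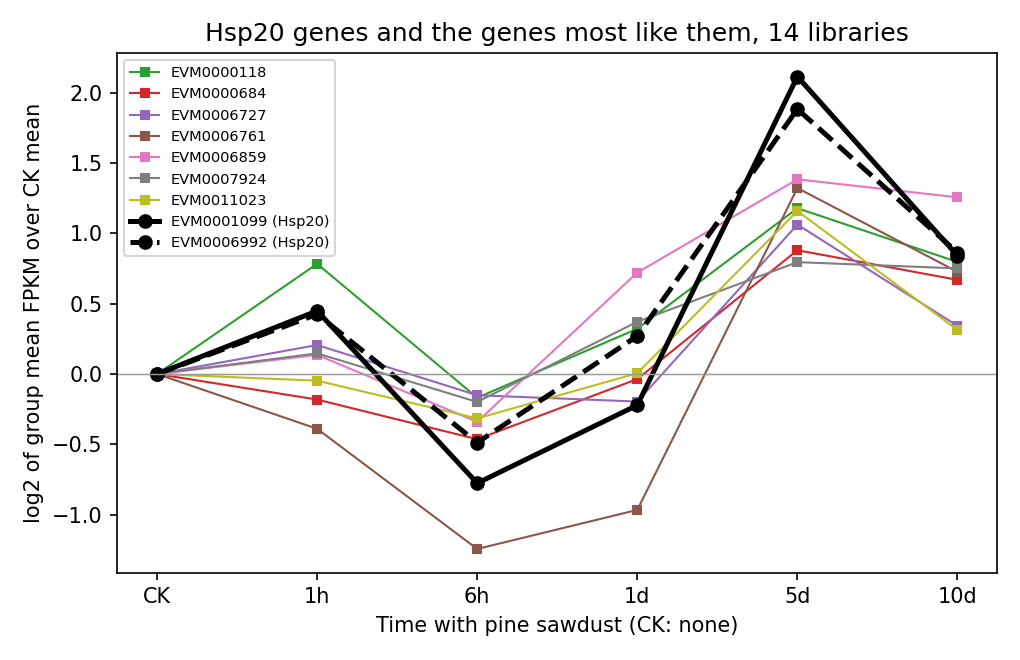
Log2 ratio of the group mean FPKM to the CK mean over the 14 kept libraries, by time with pine sawdust, for the Hsp20 genes (black) and the 7 other genes most like them (coloured, without error bars). All peak at 5d, which the choice of the 7 genes by likeness favours. Several keep most of their level at 10d, such as EVM0006859 (89.3 and 81.7 FPKM) and EVM0007924 (20.2 and 19.5 FPKM).

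The study placed both Hsp20 genes in its blue module, a set of genes that followed the time of PSI, and listed them among the module genes changed at 10d. Its calls came from DESeq2, at over 2-fold and an adjusted p under 0.01. Here, with limma on FPKM at the same thresholds, neither gene was called at 10d over the 14 libraries (0.79 and 0.86) or over all 18. The reason for this difference from the study was not tested. The blue-module list was chosen on these libraries, so its direction is not independent evidence. Of the 100 other genes on the list, 81 are in the deposited table. At 5d 55 of them were called higher and 1 lower, where 155 and 243 of all 1088 tested genes were. Their median log2 fold change was 1.36, against -0.23 for all tested genes. The values of EVM0001099 and EVM0006992 at 5d, 2.09 and 1.88, were exceeded by 12 and 15 of the 81. At 10d 77 of the 81 had a higher log2 fold change than each Hsp20 gene, and the median was 1.79. From 5d to 10d the 81 genes had a median of 0.43, and 3 of them lay below each Hsp20 gene. There 16 of the 81 were called higher and 3 lower, against 2.94% and 7.44% of all tested genes. In the fit of all 18 libraries 1 of the 81 was called, as higher, where 0.183% of all tested genes were. The median of the 81 was 0.46 in that fit, and the falls of the Hsp20 genes were not called there either. In the 14 libraries the highest mean was at 10d in 66 of the 81 genes and at 5d in 13. Of all tested genes 20.6% had it at 10d and 9.19% at 5d.

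**Figure D5:**
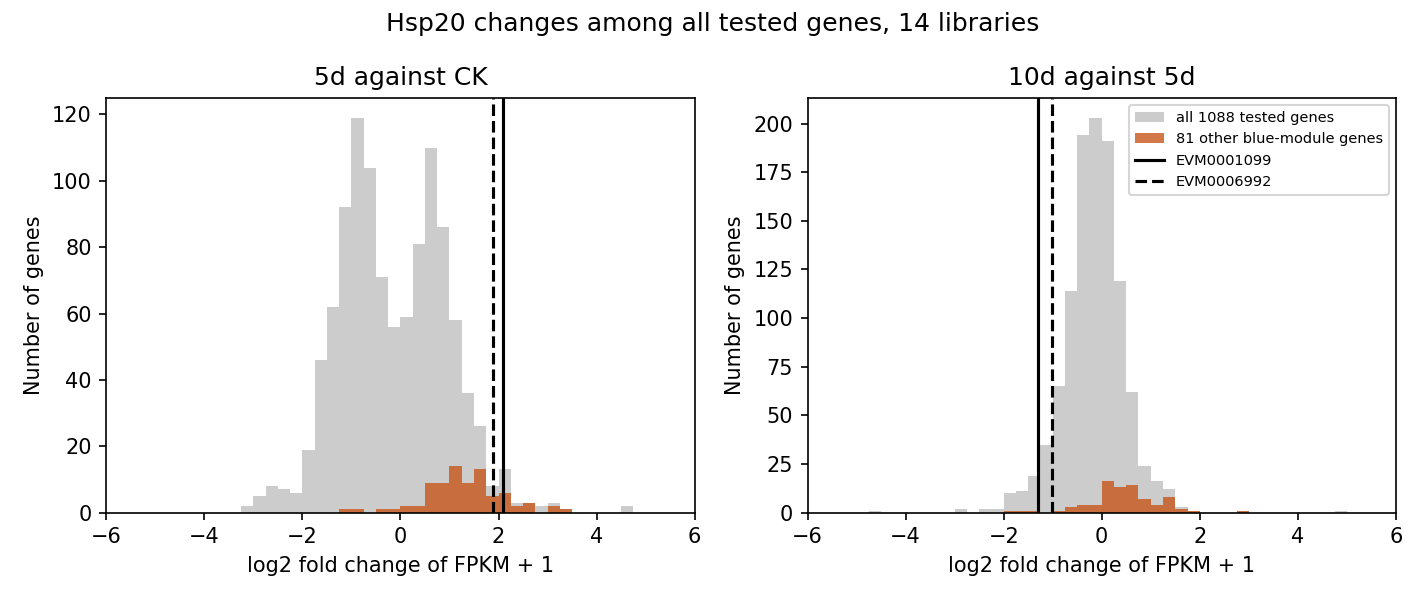
Number of genes by log2 fold change of FPKM + 1 for 5d against CK (left) and 10d against 5d (right) over the 14 kept libraries; grey bars are the 1088 tested genes, orange bars the 81 other genes of the blue-module list, and black lines the Hsp20 genes. The lines stand at 2.09 and 1.88 on the left and at -1.30 and -1.02 on the right, with 3 of the 81 genes below them there.

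Other genes of protein quality control were taken from the same blue-module list, so their direction at 10d is likewise not independent evidence. At 5d 1 of 5 was called higher, where 14.2% of all tested genes were, and at 10d 3 of 5, where 18.5% were, with a median log2 fold change of 1.08 against -0.44 for all tested genes. In the fit of all 18 libraries 4 of 5 were called at 10d, where 14.1% of all tested genes were. None was called at 5d in that fit, where the smallest limma adjusted p was 0.0246. Genes of the BAG domain act in animals as partners of Hsp70 that release its substrates. The BAG domain gene EVM0005606 had an FPKM of 108 ± 5.09 (SD, n = 2) as the CK mean and 64.8 ± 7.04 (SD, n = 3) at 6h. Its mean was lowest at 1d, where it was called lower than CK in the 14 libraries (-1.09, SE 0.15, limma adjusted p = 3.74e-05) but not in all 18 (-0.90, SE 0.24, limma adjusted p = 0.00509). At 5d the mean was 175 ± 41.5 (SD, n = 2). It was at 230 ± 25.1 (SD, n = 3) at 10d, where it was called (1.08, SE 0.14, limma adjusted p = 7.96e-06). F-box proteins bring substrates to ubiquitin ligases, and RING fingers are found in ubiquitin ligases. The F-box-like gene EVM0002907 rose at 5d by 1.38 (SE 0.14) and at 10d by 3.19 (SE 0.13, limma adjusted p = 1.57e-10) on the log2 scale, but its rise at 5d was not called with all 18 libraries (1.27, SE 0.47, limma adjusted p = 0.0246). The gene with RING and SWIM zinc fingers, EVM0010749, rose at 10d by 2.02 (SE 0.20). Both also rose from 5d to 10d in the 14 libraries, by 1.81 (SE 0.13) and 1.33 (SE 0.20), while the Hsp20 genes fell. Of the tested genes 2.94% were called higher at 10d than at 5d, or 0.183% over the 18 libraries. There neither gene was called, with limma adjusted p values of 0.0786 and 0.0795. The aspartyl protease gene EVM0010008 had a log2 fold change of 0.89 (SE 0.16) at 10d, and the BTB/POZ gene EVM0010606, of a domain that can link substrates to ubiquitin ligases, one of 0.95 (SE 0.22). Both were under the fold threshold in the 14 libraries, and EVM0010606 was called higher in all 18 (1.07, SE 0.29, limma adjusted p = 0.00358). These genes are weak, with mean FPKM of 5.68 in CK and 11.4 at 10d for EVM0010008 and of 3.58 and 7.63 for EVM0010606, so that both FPKM means more than doubled while the log2(FPKM + 1) differences stayed under 2-fold.

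Of 4 genes on that list tied to stress, 2 were called higher at 5d and 3 at 10d with either set of libraries. Of all tested genes 14.2% and 18.5% were called higher in the 14, and 11.7% and 14.1% in the 18. The medians in the 14 libraries were 1.07 and 1.28, against -0.23 and -0.44 for all tested genes. The bacteriorhodopsin-like gene EVM0009931 belongs to a family that in baker's yeast holds the membrane heat shock protein Hsp30. Its CK mean FPKM was 47.4 ± 2.08 (SD, n = 2), and it was 79.2 ± 7.40 (SD, n = 3) by 6h, 198 ± 7.88 (SD, n = 2) by 5d and then 124 ± 8.89 (SD, n = 3) at 10d. It rose at 5d by 2.04 (SE 0.10, limma adjusted p = 2.28e-09) and at 10d by 1.37 (SE 0.09), and it differed by -0.67 (SE 0.09) from 5d to 10d, under the fold threshold. Over the 18 libraries both rises were called, at 2.18 and 1.63, and it differed by -0.54 (SE 0.24, limma adjusted p = 0.151) from 5d to 10d. It was the single gene of these 9 whose mean was lower at 10d than at 5d, as it was for the Hsp20 genes. The zinc finger gene EVM0008764 matches MNL1, a regulator of stress genes in Candida albicans, and rose by 1.56 (SE 0.11) at 5d and 1.85 (SE 0.10) at 10d. The gene EVM0003124, annotated as a proteolipid membrane potential modulator, rose at 10d by 1.20 (SE 0.15). The catalase gene EVM0011998, whose enzyme splits hydrogen peroxide, had its lowest mean at 1h, with 7.13 ± 0.0836 (SD, n = 2) against 15.2 ± 0.818 (SD, n = 2) for CK. On the log2(FPKM + 1) scale this was just under the fold threshold in the 14 libraries, and it was called lower in all 18 (-1.11, SE 0.19, limma adjusted p = 0.000232). At 10d it had 29.3 ± 1.63 (SD, n = 3), a log2 fold change of 0.90 (SE 0.11), which was under the fold threshold with either set of libraries.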

How the data were processed

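FPKM values of 18 libraries were used as the authors deposited them, in a table of 1100 genes with one column per library. Per the methods of the study, the authors cleaned the reads with Cutadapt, mapped them with HISAT2 2.0.4, assembled transcripts with StringTie 1.3.3b and quantified genes with an RSEM-based algorithm. Bowtie 0.12.2 stands in the submitters' processing notes. The table gives no read totals and low values showed no common step, so the counting precision of each value was not modelled. The genome build is not given in the sources used here. Of the gene identifiers, 0 matched the reference gene table, so no position or sequence is given.

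Values were transformed to log2(FPKM + 1), and genes were tested where 2 or more libraries reached an FPKM of 1. limma 3.58.1 in R 4.3.3 fitted the 6 groups together with a trend of variance on the mean, over the 14 libraries that the study kept and over all 18. Benjamini-Hochberg adjustment ran over all tested genes within each of the 15 pairs of groups. Called differences exceeded 2-fold with an adjusted p under 0.01. The code was tested on simulated data. The ratio of the Hsp20 genes was tested with 100000 permutations over the groups and with exact permutation tests against CK. Named genes were the Hsp20 genes, the 5 genes most like each of them over 18 libraries, and the lists of 5 protein quality control genes and 4 stress genes. The members and lists were chosen with earlier results of these data known. Alternatives covered the libraries, normalization, filter, pseudocount, thresholds, replicate block and each library left out. Python 3.11.15, scipy 1.17.1 and matplotlib 3.10.9 made the other tables and the figures.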

Additional observations from a re-analysis of the deposited data

How the results depend on the processing

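The rise at 5d against CK was called for both Hsp20 genes in every fit that was run, and the rise from 1d to 5d in every fit but 1. The fold threshold decided several calls. At an adjusted p under 0.01 without it, the differences at 6h (-0.75 for EVM0001099 and -0.49 for EVM0006992) and 10d (0.79 and 0.86) against CK were called, as were those of EVM0006992 from 1h to 6h (-0.92) and from 6h to 1d (0.76). Quantile normalization called the latter at -1.16 and 1.23 and ended the call of its fall from 5d to 10d (-0.92). All 18 libraries ended the calls of EVM0001099 from 1h to 6h (-0.88) and of both genes from 5d to 10d (-0.75 and -0.69), and the replicate block with all 18 libraries gave the same values. T-1h-3 or T-5d-2 alone, added to the 14 libraries after seeing the data, ended the first of these calls at -0.88 and -1.19, and T-5d-2 the others at -0.75 and -0.69. With single libraries left out of the 14 or of all 18, EVM0001099 ran from -1.23 to -0.71 for 6h against 1h, from -1.46 to -0.39 for 10d against 5d and from 0.62 to 1.18 for 10d against CK. EVM0006992 ran from -1.03 to -0.38, from -1.12 to -0.48 and from 0.75 to 1.07 in the same comparisons. For 5d against 1d EVM0006992 ran from 1.06 to 1.71, and it was not called at 1.06, without T-5d-3 from all 18 libraries. Left-out libraries moved the share of the variance of the ratio between groups from 54.4% to 81.3%, where the highest was without T-10d-1. The filter, the pseudocount, fits of only the compared groups and the looser p threshold changed no call of the 2 genes. No common pairing by replicate number was seen, as 7 of 45 same-numbered pairs had a correlation of deviations over 0.1, with a median of -0.03. The check included the libraries that the study left out, and the labels do not say whether numbers pair flasks, so it cannot exclude pairing. The replicate block with the 14 libraries changed no call of the Hsp20 genes (5d against CK, 2.17 for EVM0001099 and 1.91 for EVM0006992). The 18-library SEs were larger for both genes in each comparison. With quantile normalization 4 of 5 quality control genes and 4 of 4 stress genes were called higher at 10d, where 253 of the 1088 tested genes were. Both lists come from genes that the study chose for a change at 10d.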
